A study of Mus musculus with 17 samples.

Results

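The ERK feedback genes Spry1, Spry2, Spry4, Spred1, Spred2, Dusp4, Dusp5, Dusp6, Etv4 and Etv5 were followed in 17 RNA-seq libraries of mouse neural retina progenitor cells (mNRPCs). They were taken by symbol as known feedback inhibitors and ETS-family targets of FGF/ERK signalling, and they are 10 of the 18836 genes listed in at least 1 library. All 10 were listed in all 17 libraries and all passed the filter on low values. The mNRPCs came from the neural retina of adult C57BL/6 mice and had been expanded with basic fibroblast growth factor (bFGF) and the GSK3 inhibitor CHIR99021, so every library shares that history. Cells were then kept in basic medium (BM), which is DMEM/F12 with N2, B27 and beta-mercaptoethanol, in BM with bFGF (B), in BM with CHIR99021 (C) or in BM with both (BC). For each of these media 1 library was made on each of days 1, 3, 5 and 7, and 1 day 0 control is labelled as having no treatment. The study describes this control as cells in BM, so whether it was taken before the media were applied is not settled, and differences from day 0 are read with that limit. Every condition is therefore 1 library, and no source used here says whether libraries of different days came from separate cultures.

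Fibroblast growth factors act through receptor tyrosine kinases on RAS, RAF, MEK and ERK. Active ERK induces genes that dampen the same pathway: Sprouty and Spred proteins act on RAS and RAF, and dual-specificity phosphatases (DUSPs) remove the activating phosphates from ERK and related kinases. The ETS factors Etv4 and Etv5, of the PEA3 group, are transcription factors that carry the output of FGF signalling to further genes, and transcripts of these families are widely read as a trace of FGF/ERK activity in the developing eye and brain.

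Total expected counts ran from 17571973 to 19428744 per library, and the expected counts of the 10 genes from 41 (Spry1 in C on day 1) to 6793 (Dusp4 in B on day 3). Of 8 retinal progenitor markers, Pax6, Six3, Nes and Sox2 had a median FPKM above 1, whereas Six6 and Rax stayed at 0.07 FPKM or lower in every library and Lhx2 at 2.35 or lower. The label of retinal progenitor cells thus holds for only some of its defining markers. The summed FPKM of the 8 markers was 75.8 to 202 with bFGF and 139 to 353 without. Pax6 alone had 10.71 to 82.35 FPKM with bFGF and 42.16 to 207.22 without. In the test over days 1 to 7 given below, its log2 fold change with bFGF was -1.94. The median of the 4 markers tested was -0.49, and all 4 values were negative. The summed FPKM of 6 mesenchymal markers was 7.76 to 38.7 with bFGF and 16.1 to 163 without. Of the mesenchymal markers, Pdgfrb had 5.25 to 31.9 FPKM with bFGF and 13.4 to 115 without, and Col1a1 0.14 to 1.53 and 0.62 to 45.2, while Col1a2 and Lum stayed at 1.78 or lower. The sums of 4 endothelial and of 4 microglial markers stayed at 1.34 and 2.48 FPKM or lower. These marker levels moved with bFGF, and their part in the results below was not tested. In bulk RNA, fewer cells that express a gene and less RNA of it per cell cannot be told apart.

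Sequences around the transcription start were at hand for 7 of the 10 genes, in 8 windows of 250 bases before to 50 bases after a start (RefSeq, GRCm38.p6), since Etv5 has 2 starts. They were searched on both strands for letters that ETS factors, serum response factor, AP-1, CREB and TCF/LEF factors are known to bind. The PEA3-type letters AGGAAG were found in 4 of the 8 windows (Spred2, Dusp5, Dusp6 and the second Etv5 start), against 35.4% of 32851 windows of the same length. The ETS letters CCGGAA were found in 1 window, that of Spry2, against 14.9% of all windows. A serum response (CArG) box was found at 2 adjacent places in the Dusp5 window that do not overlap, and such a box is in 1.63% of all windows. TGACTCA on either strand (AP-1, 5.20% of all windows), TGACGTCA (CREB, 1.79%) and ATCAAAG (TCF/LEF, 3.73%) were in none of the 8. Whether these letters go with the response to bFGF was not tested. The windows of Spred2, with AGGAAG at 2 places, and of Spry1 and the first Etv5 start, with none of these letters, are not shown. Shown are the windows of Spry2, Dusp5, Dusp6 and the second Etv5 start, which carry some of these letters, and that of Spred1, which carries none. They lie at chr14:105896770-105897069 on the minus strand (Spry2), chr19:53528895-53529194 on the plus strand (Dusp5), chr10:99262981-99263280 on the plus strand (Dusp6), chr16:22438319-22438618 on the minus strand (Etv5) and chr2:117120821-117121120 on the plus strand (Spred1). Capitals mark CCGGAA in the Spry2 window, the CArG boxes in the Dusp5 window and, in the others and also in that of Dusp5, AGGAAG on either strand.
Spry2: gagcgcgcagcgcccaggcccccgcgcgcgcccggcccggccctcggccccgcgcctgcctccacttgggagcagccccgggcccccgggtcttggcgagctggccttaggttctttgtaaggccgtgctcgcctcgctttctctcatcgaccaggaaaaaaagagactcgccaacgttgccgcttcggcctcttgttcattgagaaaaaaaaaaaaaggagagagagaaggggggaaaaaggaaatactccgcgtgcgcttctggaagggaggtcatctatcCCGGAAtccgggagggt
Dusp5: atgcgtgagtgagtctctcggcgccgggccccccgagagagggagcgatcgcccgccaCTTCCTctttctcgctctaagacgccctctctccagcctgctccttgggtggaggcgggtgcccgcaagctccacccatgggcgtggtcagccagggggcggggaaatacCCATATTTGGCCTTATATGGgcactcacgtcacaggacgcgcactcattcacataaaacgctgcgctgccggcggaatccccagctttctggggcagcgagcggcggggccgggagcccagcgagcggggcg
Dusp6: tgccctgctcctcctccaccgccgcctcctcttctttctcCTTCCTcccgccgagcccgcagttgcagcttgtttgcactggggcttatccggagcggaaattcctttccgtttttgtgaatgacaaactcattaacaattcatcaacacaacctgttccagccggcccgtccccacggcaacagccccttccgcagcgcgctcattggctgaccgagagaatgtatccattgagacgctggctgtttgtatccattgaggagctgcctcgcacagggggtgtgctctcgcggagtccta
Etv5: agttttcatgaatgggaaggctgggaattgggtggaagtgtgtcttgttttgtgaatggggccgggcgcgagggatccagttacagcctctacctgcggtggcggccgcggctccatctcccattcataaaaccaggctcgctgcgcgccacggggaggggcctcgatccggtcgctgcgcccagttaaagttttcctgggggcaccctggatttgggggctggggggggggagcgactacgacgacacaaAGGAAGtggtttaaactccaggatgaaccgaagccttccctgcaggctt
Spred1: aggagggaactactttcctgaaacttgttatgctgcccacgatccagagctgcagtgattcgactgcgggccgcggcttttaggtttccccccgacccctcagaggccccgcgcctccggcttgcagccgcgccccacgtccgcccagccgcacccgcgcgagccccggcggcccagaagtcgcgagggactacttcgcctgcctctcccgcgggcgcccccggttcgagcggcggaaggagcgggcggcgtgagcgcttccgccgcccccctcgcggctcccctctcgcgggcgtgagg

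With bFGF, 8 of the 10 genes rose over days 1 to 7, and none fell, in the additive model of day, bFGF and CHIR99021. Of all 11272 genes tested, 34.6% rose and 33.9% fell in this test, so that rises were 50.5% of the calls, but 28.2% of them on counts without TMM scaling. The 8 were Spry2, Spry4, Spred2, Dusp4, Dusp5, Dusp6, Etv4 and Etv5, and their log2 fold changes ran from 0.85 for Spred2 to 3.68 for Dusp4. The median over the 10 genes was 2.01, beside 0.00 over all genes tested. All but Spred2 of these 8 were higher in FPKM in B than in BM and in BC than in C on all 4 days, which held for 15.5% and 13.5% of all genes. For Spry4, Dusp4, Dusp6, Etv4 and Etv5, every one of the 8 libraries with bFGF lay above every one of the 8 without, which held for 1.39% of all genes tested. The test reads the spread from departures from the model and not from replicate cultures, so the p-values may be too small for the spread between cultures. On the FPKM scale the median difference over all genes, with minus without bFGF, was -0.50 to -0.03 (log2) over the 8 same-day pairs, and the model values are relative to TMM scaling, which takes that shift out.

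**Figure D1:**
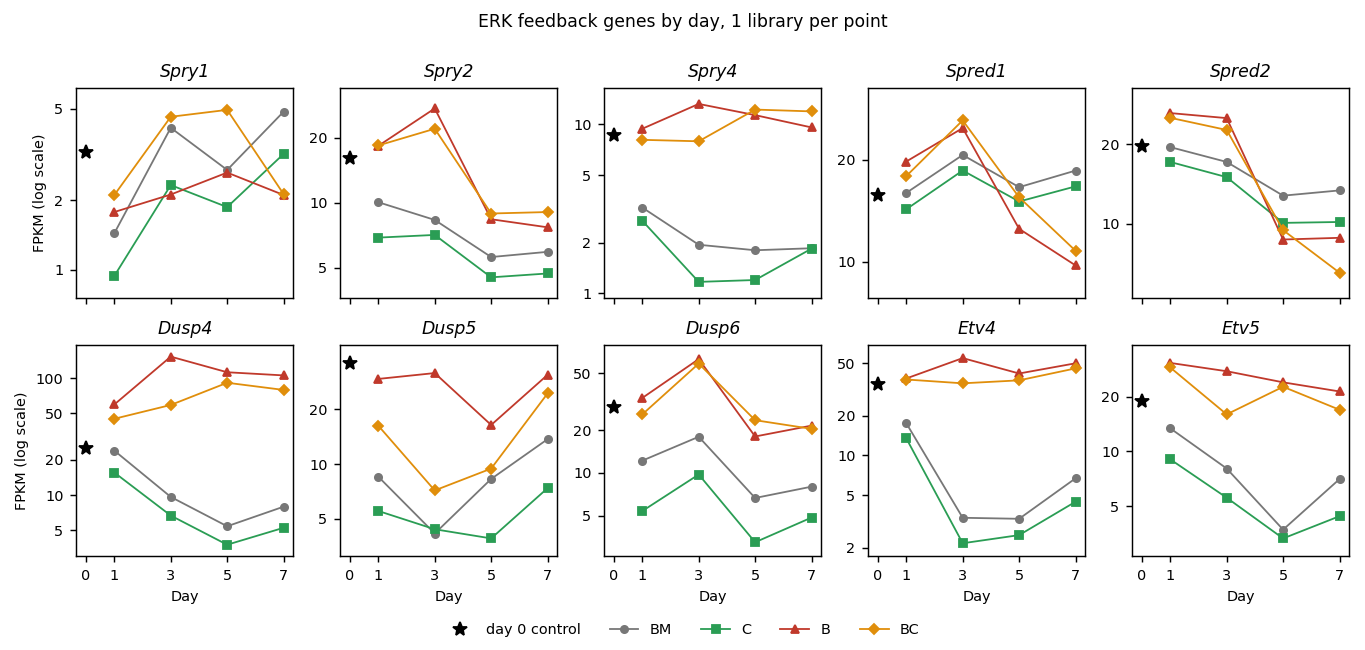
FPKM (log scale) of the 10 genes against the day of culture, 1 library per point, for BM, C, B and BC, with the day 0 control as a star. The B and BC lines lie above the BM and C lines on every day for Spry2, Spry4, Dusp4, Dusp5, Dusp6, Etv4 and Etv5, while the lines of Spry1, Spred1 and Spred2 cross.

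Of the Sprouty genes, which encode inhibitors of receptor tyrosine kinase signalling, Spry2 and Spry4 passed the test and Spry1 did not. Spry4 was listed at 3.22, 1.94, 1.80 and 1.85 FPKM in BM and at 2.69, 1.17, 1.2 and 1.84 in C on days 1, 3, 5 and 7. In B it was at 9.42, 13.2, 11.3 and 9.59 FPKM and in BC at 8.10, 7.94, 12.2 and 11.9 on the same days. The lowest library with bFGF was thus 7.94 and the highest without it 3.22, and Spry4 rose with bFGF by 2.77 on the log2 scale (SE 0.24, adjusted p = 1e-05). Day 0 stood at 8.67 FPKM, within the range with bFGF and above every library without it.

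Spry2 was listed at 10.05, 8.32, 5.60 and 5.92 FPKM in BM and at 6.89, 7.09, 4.51 and 4.70 in C on days 1, 3, 5 and 7. In B it was at 18.3, 27.3, 8.38 and 7.69 FPKM and in BC at 18.4, 22.0, 8.91 and 9.05. Spry2 was higher with bFGF in 8 of 8 pairs of the same day, but both groups were lower on days 5 and 7, so that the groups overlap across days. The rise with bFGF was 1.38 (SE 0.11, adjusted p = 6.8e-06). Spry1 was low throughout. It was listed at 1.44, 4.13, 2.71 and 4.85 FPKM in BM, at 0.94, 2.33, 1.87 and 3.18 in C, at 1.78, 2.12, 2.64 and 2.11 in B and at 2.11, 4.61, 4.94 and 2.13 in BC. Across days the groups overlap, with bFGF higher in 4 of 8 pairs. Both libraries with bFGF lay above both without it on day 1 and below both on day 7, and the bFGF effect of 0.43 (SE 0.27, adjusted p = 0.17) did not pass the threshold. Day 0 was at 16.1 FPKM for Spry2 and at 3.25 for Spry1.

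The Spred genes encode Sprouty-related proteins that bind neurofibromin and restrain RAS. Spred1 was listed at 15.96, 20.65, 16.6 and 18.6 FPKM in BM and at 14.3, 18.6, 15.05 and 16.7 in C on days 1, 3, 5 and 7, and at 19.8, 24.8, 12.5 and 9.75 in B and 17.9, 26.1, 15.5 and 10.8 in BC. It was thus above the libraries without bFGF on days 1 and 3 and below them on day 7. Its effect over days 1 to 7 was 0.16 (SE 0.11, adjusted p = 0.22). On single days, Spred1 rose with bFGF on day 3 by 0.47 (SE 0.12, adjusted p = 0.0062) and fell on day 7, with a log2 fold change of -0.39 (SE 0.12, adjusted p = 0.011). The call on day 3 was lost without C of that day (adjusted p = 0.055) and that on day 7 without BM (0.072) or B (0.13) of day 7 and with the length offset described below for Spred2 (0.075).

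For Spred2 the direction depends on the scale. Its expected count was 1654, 1221, 934 and 967 in BM and 1526, 1034, 734 and 777 in C on days 1, 3, 5 and 7, against 2129, 1910, 1052 and 1494 in B and 2101, 1683, 1084 and 1445 in BC. After TMM scaling the counts were higher with bFGF in 8 of 8 pairs, and the log2 fold change was 0.85 (SE 0.10, adjusted p = 8.4e-05). In FPKM, Spred2 was at 19.5, 17.1, 12.8 and 13.4 in BM and 17.1, 15, 10.1 and 10.1 in C, but at 26.25, 25.1, 8.70 and 8.83 in B and 25.2, 22.65, 9.44 and 6.51 in BC, so that it was lower with bFGF on days 5 and 7. The scales differ in TMM scaling, which FPKM lacks, and in the average transcript length deposited for the gene in each library. TMM factors on day 7 were 0.793 and 0.754 in B and BC, against 1.13 and 1.12 in BM and C. The length was 3835 to 4697 bases without bFGF. In B and BC it was 6763 and 6450 bases on day 5 and 9163 and 12144 on day 7. The ratio of the longest to the shortest length was 3.17, and 0.106% of the genes tested had as large a ratio. With the length as an offset in edgeR, an alternative chosen after seeing the data, the bFGF effect on Spred2 on day 7 was -0.08 (adjusted p = 0.51) in place of 1.33 (SE 0.11, adjusted p = 2.6e-07). The expected count of Spred2 was a whole number in 0 of 17 libraries, unlike those of the other 9 genes, which were whole in all 17. Counts that are not whole arise where reads are divided between features, and these tables do not tell a change of isoform from one in how reads were assigned, so the level of Spred2 is uncertain.

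**Figure D2:**
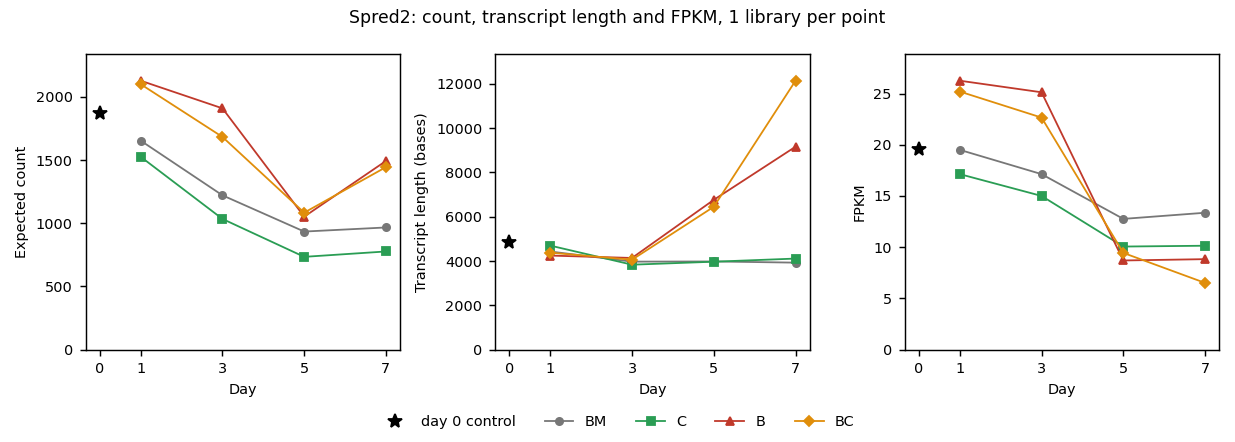
Expected count (left), average transcript length in bases (middle) and FPKM (right) of Spred2 against the day of culture, 1 library per point. The length stays near the day 0 value of 4858 bases or below it without bFGF and reaches 12144 bases in BC on day 7, while the expected counts of B and BC stay above those of BM and C and the FPKM values fall below them on days 5 and 7.

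Dusp4 had the widest range of the 10 genes over the 17 libraries, with a ratio of highest to lowest FPKM of 40.8, followed by Etv4 with 25.3 and Dusp6 with 19.3. Dusp4 encodes a nuclear phosphatase of ERK and other MAP kinases, and it went from 24.0 FPKM in BM on day 1 to 9.65, 5.41 and 7.96 on days 3, 5 and 7, with 15.6, 6.68, 3.76 and 5.25 in C. In B it stood at 59.7, 153, 113 and 106 FPKM and in BC at 45.0, 59.1, 91.6 and 79.5. The lowest library with bFGF was 45.0 and the highest without it 24.0, and the ratios within a day ran from 2.48 to 24.4. Dusp4 rose with bFGF by 3.68 (SE 0.43, adjusted p = 6.5e-05), the largest log2 fold change of the 10 genes.

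Dusp6 encodes the cytoplasmic phosphatase that is specific for ERK. It was listed at 12.2, 17.95, 6.67 and 8.01 FPKM in BM and at 5.40, 9.75, 3.26 and 4.86 in C, against 33.6, 63.0, 18.03 and 21.5 in B and 25.8, 58.6, 23.5 and 20.4 in BC. All 4 media had their highest value on day 3, and on each day both libraries with bFGF lay above both without. Across days the groups come close, at 18.03 FPKM for B on day 5 and 17.95 for BM on day 3. Dusp6 rose with bFGF by 2.27 (SE 0.17, adjusted p = 4.5e-06).

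Dusp5 encodes a nuclear phosphatase of ERK. It was listed at 8.52, 4.15, 8.28 and 13.7 FPKM in BM and at 5.52, 4.38, 3.90 and 7.37 in C, against 29.4, 31.6, 16.4 and 30.9 in B and 16.25, 7.16, 9.44 and 24.45 in BC. It was higher with bFGF in 8 of 8 pairs, and rose by 1.84 (SE 0.19, adjusted p = 3.9e-05), but BC on day 3 lay below BM on days 1, 5 and 7. On day 0, Dusp4, Dusp5 and Dusp6 stood at 25.1, 36.0 and 29.2 FPKM, so that Dusp5 was the only one of the 10 genes with its highest value of all 17 libraries on day 0.

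The ETS factors Etv4 and Etv5 both rose with bFGF. Etv4 was listed at 17.6, 3.37, 3.31 and 6.71 FPKM in BM and at 13.5, 2.16, 2.49 and 4.46 in C, against 38.35, 54.7, 41.8 and 49.98 in B and 37.7, 35.2, 37.1 and 45.7 in BC. With bFGF every library lay above the day 0 level of 34.6 FPKM, up to 54.7 in B on day 3. Without bFGF the level was below that of day 0 on day 1 and lower again on day 3. Its log2 fold change was 3.38 (SE 0.37, adjusted p = 4.6e-05). Etv5 was at 13.4, 8.05, 3.71 and 7.04 FPKM in BM and 9.04, 5.56, 3.32 and 4.40 in C, against 30.7, 27.6, 24.0 and 21.4 in B and 28.9, 15.98, 22.7 and 16.9 in BC, with 18.8 on day 0. The highest library without bFGF, BM on day 1, lay below the lowest with it, BC on day 3, and the log2 fold change was 2.18 (SE 0.21, adjusted p = 1.8e-05). Compared per length, Dusp4 had the highest median FPKM of the 10 genes with bFGF, 85.6, and Spry1 the lowest, 2.13, whereas without bFGF the highest medians were those of Spred1, 16.6, and Spred2, 14.2, and the lowest that of Spry4, 1.85.

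The bFGF effect was then tested on each day, in a model with a separate bFGF effect per day and 1 CHIR99021 effect. On day 1, 8 of the 10 genes rose, while 6.21% of all genes did. The number was 9 on day 3 (25.4% of all genes), 9 on day 5 (37.2%) and 8 on day 7 (38.8%), when Spred1 fell (39.6% of all genes fell). Rises made up 58.2%, 50.4%, 49.1% and 49.5% of the calls over all genes on the 4 days, and 36.2%, 40.1%, 27.3% and 27.1% without TMM scaling. The counts on days 5 and 7 include Spred2, which limma on log2(FPKM + 1) called lower on both days (-0.29, adjusted p = 0.033, and -0.56, adjusted p = 0.00064). On day 1 the called effects were moderate, from 0.49 for Spred2 (SE 0.10, adjusted p = 0.014) to 1.88 for Dusp6 (SE 0.30, adjusted p = 0.0034). The calls of Spred2 and Dusp5 on day 1 were lost when any 1 of the 4 libraries of that day was left out, with adjusted p between 0.052 and 0.20. Spry1 passed the threshold on day 5 only, with 1.15 (SE 0.40, adjusted p = 0.020), and that call was lost without BC (adjusted p = 0.24) or C (0.16) of day 5, on unscaled counts (0.13) and with limma on log2(FPKM + 1) (0.15) or log2(FPKM + 0.1) (0.16).

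Over all genes 76.3% passed the test, with 3 degrees of freedom, for a difference of the bFGF effect between days. No larger a share of the 10 genes passed it. The size of the effect differed for 6 of them, namely Spry4, Spred1, Spred2 (whose sign turns with the length offset), Dusp4, Etv4 and Etv5. The effect on day 7 exceeded that on day 1 for 5 of these (31.3% of all genes) and was below it for Spred1 (34.1% of all genes, with rises 47.8% of the calls, or 25.7% without TMM scaling), with a difference of -0.78 (SE 0.17, adjusted p = 0.0015). Dusp4 went from 1.50 (SE 0.21) on day 1 to 3.72 (SE 0.23), 4.95 (SE 0.24) and 4.38 (SE 0.23) on days 3, 5 and 7. Etv4 went from 1.39 (SE 0.15) to 4.11, 4.23 and 3.66, and Spry4 from 1.65 (SE 0.23) to 2.86, 3.44 and 3.11. In these 3 genes the day 1 effect was thus the smallest, and the effect on day 7 exceeded it by 2.87 for Dusp4 (SE 0.30, adjusted p = 5.9e-06), 2.27 for Etv4 (SE 0.22, adjusted p = 3.3e-06) and 1.46 for Spry4 (SE 0.34, adjusted p = 0.0023). Etv5 had effects of 1.52, 1.76, 3.18 and 2.31, with a difference of day 7 from day 1 of 0.79 (SE 0.24, adjusted p = 0.011). That difference lost its call on unscaled counts (0.33, adjusted p = 0.22), with limma on log2(FPKM + 1) (0.25, adjusted p = 0.33) or log2(FPKM + 0.1) (0.33, adjusted p = 0.24), and without B of day 1 or C of day 7 (adjusted p = 0.051 for each).

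No difference between days passed the test for Spry1, Spry2, Dusp5 and Dusp6. Spry1 had the widest shift of these, with daily effects of 0.82, 0.14, 1.15 and -0.38 and a difference of day 7 from day 1 of -1.21 (SE 0.60, adjusted p = 0.095), which was called in 5 of 22 alternatives, among them unscaled counts (-1.67, adjusted p = 0.028). The daily effects were 1.21, 1.76, 1.23 and 1.29 for Spry2 (adjusted p = 0.12 between days), 1.76, 2.09, 1.56 and 2.01 for Dusp5 (0.75) and 1.88, 2.29, 2.59 and 2.29 for Dusp6 (0.47). The difference of day 7 from day 1 was 0.08 for Spry2 (SE 0.24), 0.25 for Dusp5 (SE 0.50) and 0.41 for Dusp6 (SE 0.42), so a change of about the size seen for Etv5 would lie within 2 SE for Dusp5 and Dusp6.

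**Figure D3:**
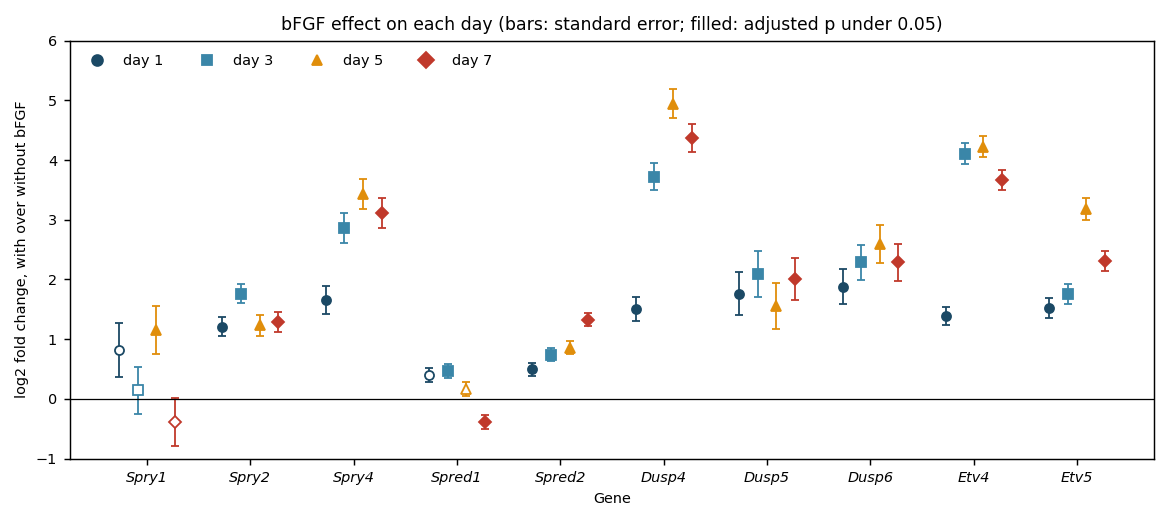
Log2 fold change with over without bFGF for the 10 genes on days 1, 3, 5 and 7, with the standard error as bars and filled symbols where the edgeR adjusted p was under 0.05. The effects on Dusp4, Etv4 and Spry4 are smallest on day 1 (1.50, 1.39 and 1.65), those on Spry2, Dusp5 and Dusp6 lie close together over the days, and Spred1 is below 0 on day 7.

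The same model gave the change from day 1 to day 7 in each arm. From day 1 to day 7 without bFGF, 6 genes fell and 1 rose, beside 31.5% and 32.3% of all genes. The falls were -1.61 for Dusp4 (SE 0.22, adjusted p = 4.6e-05), -1.49 for Etv4 (SE 0.16, adjusted p = 7.3e-06), -1.0 for Etv5 (SE 0.17, adjusted p = 0.0003) and -0.85 for Spred2, -0.70 for Spry4 and -0.67 for Spry2. The call of Spry4 was lost without BM (adjusted p = 0.082) or C (0.069) of day 1 or BM of day 7 (0.14), and that of Spry2 without BM of day 1 (0.056). Spry1 rose by 1.78 (SE 0.43, adjusted p = 0.003), against the direction of the other called genes. With bFGF, 4 genes rose (35.8% of all genes) and 2 fell (39.5%), with rises 47.5% of all calls, or 28.2% without TMM scaling. The number of rises in this arm is thus near the background. The rises were 1.27 for Dusp4 (SE 0.20, adjusted p = 9.2e-05), 0.79 for Dusp5 (SE 0.33, adjusted p = 0.047), 0.78 for Etv4 (SE 0.14, adjusted p = 0.00034) and 0.76 for Spry4 (SE 0.22, adjusted p = 0.0072), and the falls -0.59 for Spry2 and -0.58 for Spred1. Spred2 stood at -0.02 (adjusted p = 0.85) in this arm but was called lower on unscaled counts (-0.46), with the length offset (-1.32) and with limma on log2(FPKM + 1) (-1.64) or log2(FPKM + 0.1) (-1.75). Scaling bears on the arm with bFGF: on unscaled counts Spry4 (0.32, adjusted p = 0.18) and Dusp5 (0.35, adjusted p = 0.33) were not called and Etv5 fell (-0.65, adjusted p = 0.0026), and limma at either pseudocount did not call Spry4 or Dusp5. The Dusp5 call was also lost in 11 of 16 fits that left out 1 library, that of Spry4 without BC of day 7 (adjusted p = 0.16) and that of Spry2 without B of day 7 (0.083). Etv4 was called in 21 of 22 alternatives, among them all 16 that left out 1 library, with log2 fold changes down to 0.32.

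CHIR99021 blocks GSK3 and is used to activate Wnt/beta-catenin signalling. Over days 1 to 7, 4 of the 10 genes fell with CHIR99021, beside 9.79% of all genes, and none rose, beside 9.72%. Dusp5 had a log2 fold change of -0.85 (SE 0.18, adjusted p = 0.0088), Dusp4 of -0.59 (SE 0.11, adjusted p = 0.0035), Etv5 of -0.39 (SE 0.08, adjusted p = 0.0083) and Etv4 of -0.34 (SE 0.08, adjusted p = 0.013). Dusp6 stood at -0.45 (SE 0.15, adjusted p = 0.054), and the values of the other 5 genes lay between -0.22 and -0.01. All 10 values were negative, with a median of -0.28 beside 0.01 over all genes. Dusp4, Etv4 and Etv5 were lower in FPKM in 8 of 8 pairs of the same day that differ in CHIR99021, and Dusp5 and Dusp6 in 7 of 8. The share of all genes over the 8 pairs was not counted. On all 4 days, 19.9% of all genes were lower in C than in BM, and 13.8% in BC than in B. The 4 calls over days 1 to 7 rest on a model that gives bFGF its own effect on each day. In edgeR's additive model 0 of the 10 genes passed (2, Dusp5 and Dusp6, had an unadjusted p under 0.05), with adjusted p of 0.69 for Dusp4, 0.093 for Dusp5, 0.83 for Etv4 and 0.54 for Etv5, and the log2 fold changes were close to those above.

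Without bFGF, C lay below BM in 39 of 40 pairs of gene and day. These are the 10 genes read in the same 4 pairs of libraries, so they are not independent. Their share over all genes was not counted. On all 4 days, 9 of the 10 genes were lower in C, which held for 19.9% of all genes. The exception was Dusp5 on day 3, with 4.38 FPKM in C and 4.15 in BM. In the test, 5 genes fell, beside 4.41% of all genes. Dusp6 fell most, with -0.94 (SE 0.12, adjusted p = 0.00078), and its ratio of C to BM ran from 0.443 to 0.607 over the 4 days. Spry1 had -0.62 (SE 0.16, adjusted p = 0.036), Etv5 -0.49 (SE 0.12, adjusted p = 0.029), Etv4 -0.48 (SE 0.12, adjusted p = 0.026) and Spred2 -0.24 (SE 0.07, adjusted p = 0.041). Leaving out 1 library without bFGF left 1 or 2 genes past the threshold. Over all 16 fits that left out 1 library, with bFGF or without, Dusp6 alone was called in every one.

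With bFGF present, BC lay below B in 26 of 40 pairs of gene and day, again from only 4 pairs of libraries. Dusp4, Dusp5, Etv4 and Etv5 were lower in BC on all 4 days, which held for 13.8% of all genes. In the test Dusp5 fell by 0.99 on the log2 scale (SE 0.23, adjusted p = 0.017) and Dusp4 by 0.61 (SE 0.14, adjusted p = 0.015), beside 8.07% of all genes. The gap was widest on day 3, when the ratio of BC to B was 0.226 for Dusp5 and 0.386 for Dusp4. Without BC of day 3 the values were -0.63 and -0.36, and both remained past the threshold. Spry1 went the other way. It was higher in BC than in B on all 4 days, which held for 15.5% of all genes, and rose by 0.58 (SE 0.16, adjusted p = 0.029, 8.84% of all genes rose). Its call was lost without B or BC of day 3 or day 5, with adjusted p from 0.11 to 0.14.

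The difference between the CHIR99021 effects with and without bFGF passed the test for 2 of the 10 genes, beside 0.692% of all genes. It was 1.21 for Spry1 (SE 0.23, adjusted p = 0.037), which fell with CHIR99021 without bFGF and rose with it, and 0.89 for Dusp6 (SE 0.16, adjusted p = 0.029), which stood at -0.05 (SE 0.10) with bFGF. Without any 1 library of day 3, 5 or 7, or with limma on log2(FPKM + 1), 0 genes passed. At an unadjusted p under 0.05 limma had 4 of the 10 genes, Spry1 and Dusp6 among them. For Dusp4 and Dusp5 the difference was -0.05 (SE 0.22) and -0.32 (SE 0.36).

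**Figure D4:**
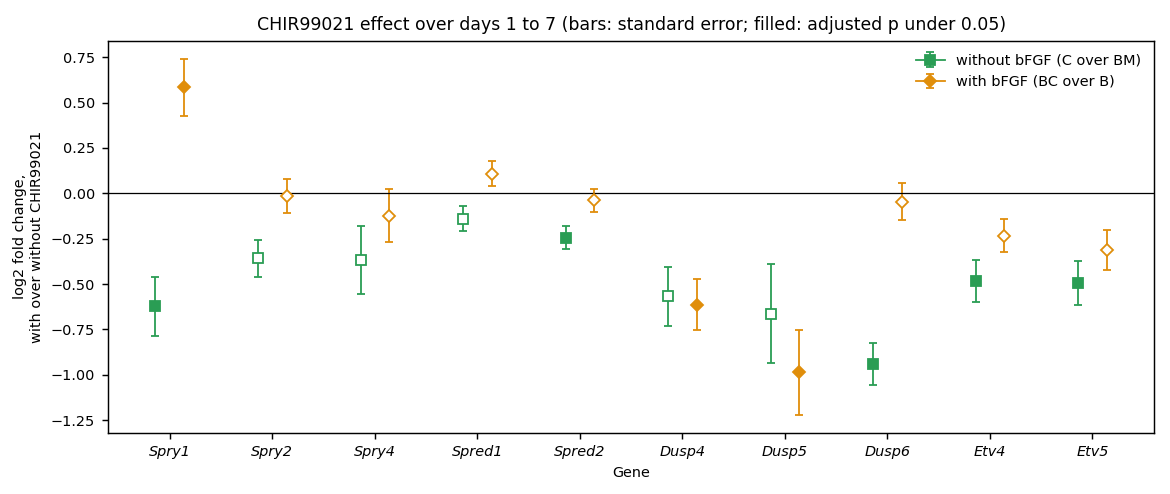
Log2 fold change with over without CHIR99021 over days 1 to 7 for the 10 genes, in libraries without bFGF (squares) and with bFGF (diamonds), with the standard error as bars and filled symbols where the edgeR adjusted p was under 0.05. All 10 squares lie below 0, Dusp6 lowest at -0.94, and the diamond of Spry1 lies above 0 at 0.58.

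Against the day 0 control, differences are given on the log2(FPKM + 1) scale with no test, since each side is 1 library. On days 5 and 7, 7 of the 10 genes (Spry2, Spry4, Dusp4, Dusp5, Dusp6, Etv4 and Etv5) were at least 2 times lower than on day 0, in BM as well as in C. The same held for 14.1% and 13% of all genes in BM and for 14.8% and 13.9% in C on these days. Already on day 1, 3 genes in BM and 6 in C were lower by that much, beside 1.78% and 2.39% of all genes, and Spry4, Dusp5 and Dusp6 were among them in both media. In all, 49 of the 80 values without bFGF were lower by at least 2 times (11.3% of the values of all genes) and 0 were higher by at least 2 times (18% of all). With bFGF, 7 of 80 values were lower by that much (15.4% of all) and 8 higher (11.2%). Of the 8 higher values 7 were of Dusp4, which was 6.11 times its day 0 level in B on day 3, in FPKM, and 1 was of Dusp6 in B on day 3. Of the 7 lower values 4 were of Dusp5 and 3 of Spred2. Dusp5 stayed below day 0 in every library, at 0.199 times its level in BC on day 3, although Etv4 and Dusp4 were above day 0 there.

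The rest of the pathway was read from lists of its members. Of the 21 genes of the ERK cascade itself, all tested, 6 rose and 7 fell with bFGF over days 1 to 7, with a median log2 fold change of 0.00. Over all genes 34.6% rose and 33.9% fell, so these counts are near the background. On unscaled counts 2 rose and 11 fell. The largest changes were in Gab1, a docking protein of receptor tyrosine kinases (-1.45, SE 0.20, adjusted p = 0.00015), Rps6ka1, a kinase downstream of ERK (0.87, SE 0.11, adjusted p = 0.00012), and Ptpn11, the phosphatase SHP2 (-0.54, SE 0.15, adjusted p = 0.0061).

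Of 12 other negative regulators 11 were tested, and 5 rose and 3 fell, beside the same shares of all genes. On unscaled counts 2 rose and 5 fell. The DUSPs Dusp9 (1.42, SE 0.17, adjusted p = 7.6e-05) and Dusp7 (1.40, SE 0.17, adjusted p = 8.7e-05), phosphatases of ERK, rose, while the ETS repressor Etv3 fell, with -1.07 (SE 0.18, adjusted p = 0.00041). Dusp9 was low, at 1.06 to 9.74 FPKM with bFGF and 0.48 to 4.92 without, so that the groups overlap across days. Dusp7 was at 22.46 to 45.53 FPKM with bFGF and 14.71 to 19.96 without. Spred3, the third Spred gene, stood at 0.23 (SE 0.13, adjusted p = 0.12), and Spry3 was at 0.02 to 0.26 FPKM and not tested. Of 6 other MAPK phosphatases 5 were tested and all 5 rose (3 on unscaled counts), beside 34.6% of all genes. The largest rises were in Dusp1 (1.72, SE 0.51, adjusted p = 0.0092), Dusp10 (1.58, SE 0.34, adjusted p = 0.0015) and Dusp8 (0.94, SE 0.22, adjusted p = 0.0025). On day 1, 0 of these 5 passed edgeR's threshold and 0 had an unadjusted p under 0.05, and only 6.21% of all genes rose on that day. Of 10 other ETS factors 8 were tested, 3 rose and 1 fell, again beside 34.6% and 33.9% of all genes, and on unscaled counts 0 rose and 4 fell. Etv1, the third PEA3-group gene, rose by 0.50 (SE 0.14, adjusted p = 0.0086), beside 3.38 and 2.18 for Etv4 and Etv5, and Elk3 by 0.46 (SE 0.11, adjusted p = 0.0027), while Etv6 fell, with -0.79 (SE 0.16, adjusted p = 0.0013).

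Of 11 other genes known to be induced by ERK 8 were tested and 6 rose with bFGF, beside 34.6% of all genes. The median of the 8 was 1.64, and 6 also rose on unscaled counts. The largest rises were in the ephrin receptor Epha2 (2.52, SE 0.31, adjusted p = 8.8e-05), the urokinase receptor Plaur (2.13, SE 0.26, adjusted p = 7.5e-05) and the transcription factor Myc (1.82, SE 0.18, adjusted p = 3e-05). Over the 8 pairs that differ in CHIR99021, 6 of these 8 genes fell, with a median of -0.46, and 3 of the 5 MAPK phosphatases fell, with a median of -0.26, beside 9.79% of all genes. In edgeR's additive model, which called 38 of all genes in place of 2199, 0 genes of either list passed, and 4 of the 8 and 0 of the 5 had an unadjusted p under 0.05.

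**Figure D5:**
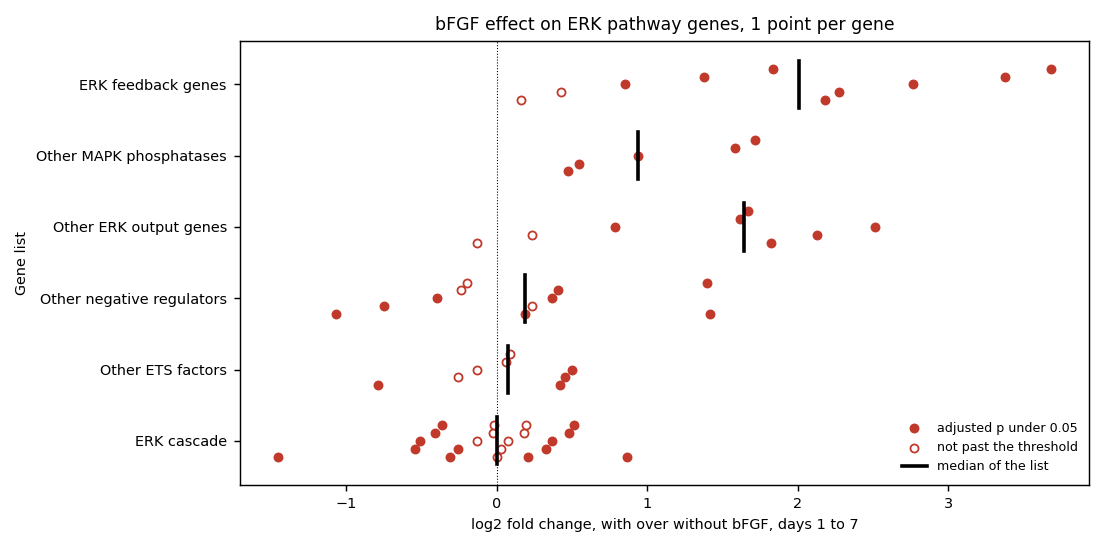
Log2 fold change with over without bFGF over days 1 to 7 for each tested gene of 6 lists, 1 point per gene, filled where the edgeR adjusted p was under 0.05, with the median of each list as a bar. The feedback genes spread from 0.16 to 3.68 around a median of 2.01, and the ERK cascade from -1.45 to 0.87 around 0.00.

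Pearson's correlations of log2(FPKM + 1) over the 17 libraries were taken as a description. The libraries share a day or a medium, and each correlation holds the bFGF difference. Spry4, Dusp4, Etv4 and Etv5 ran together, with r of 0.97 between Spry4 and Etv4. Spry2 was most like Dusp6 among the other 9 genes, with r of 0.91, and Spred1 most like Spred2, with 0.76. Spry1 had r between -0.13 and 0.33 with the other 9. Among the genes that averaged 1 FPKM or more over the 17 libraries, those most like each gene were Vav3 and Abcc1 for Dusp4 (r = 0.98 for each), Hmga1 and Upp1 for Etv4 (0.97 for each), Hmga1 and Etv4 for Spry4 (0.97 for each), Abl2 and Rbpj for Etv5 (0.97 and 0.96), Slc20a2 and Dok1 for Dusp6 (0.96 and 0.93) and Slc20a2 and Cdx2 for Spry2 (0.95 and 0.92). For the remaining genes they were Zcchc2 and Atp11b for Spred2 (0.96 and 0.94), Tmem171 and Arhgap22 for Dusp5 (0.95 and 0.92), Gpank1 and Gpr176 for Spred1 (0.93 and 0.92) and Ifitm1 and Lamb1 for Spry1 (0.76 and 0.71).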

How the data were processed

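Poly-A RNA of 17 libraries was sequenced on the BGISEQ-500 platform. The authors' processing notes name Bowtie2, RSEM and the build mm10, whereas the methods name eXpress in place of RSEM. Versions are not given in the sources used here. The authors deposited, per gene, an expected count (estimated reads, which need not be whole) and FPKM, scaled by transcript length and library total and listed from 0.01. A gene not listed was read as 0. Groups and days came from the labels.

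Rounded expected counts went into edgeR 4.0.16 under R 4.3.3 (TMM, glmQLFit, glmQLFTest, Benjamini-Hochberg adjustment over all genes tested, threshold 0.05), for the 11272 genes that averaged 1 FPKM or more over the 16 libraries of days 1 to 7. 3 designs were fitted: day, bFGF and CHIR99021 as additive terms (10 residual degrees of freedom), a bFGF effect per day with 1 CHIR99021 effect (7), and the same with separate CHIR99021 effects with and without bFGF (6). The biological coefficient of variation was 24.7%, 10.0% and 8.79% in these. Alternatives were DESeq2 1.42.0, no TMM, no filter, limma 3.58.1 on log2(FPKM + 1) or log2(FPKM + 0.1), each library left out in turn, no day 1, other designs, and, added after seeing the data, gene length as an offset. Day 0 was compared as log2(FPKM + 1). Plots were drawn with matplotlib 3.10.9 under Python 3.11.15.

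The 10 genes, the lists and the markers were chosen with earlier results of these data known. Named outside the 10 are the 3 genes of each list with the largest bFGF effect past the threshold, the close paralogs Spry3, Spred3, Dusp7, Dusp9 and Etv1, and the 2 genes most correlated with each. The cell type markers named were chosen after their values were seen, and some genes of the lists are not reported here.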

Additional observations from a re-analysis of the deposited data

Results flagged for a closer look

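The bFGF effect differed between days for 6 of the 10 genes, by edgeR's test of that difference. Over all genes 76.3% passed that test, so such a difference was no more common among the 10 genes. Day 7 minus day 1 came to 2.87 on the log2 scale for Dusp4 (adjusted p = 5.7e-06 over the 4 days), 2.27 for Etv4 (1.9e-06), 1.46 for Spry4 (0.0023) and 0.79 for Etv5 (0.00029), all with a larger effect on day 7. It came to 0.83 for Spred2 (0.0021), whose sign turns when the transcript length of each library is taken into account, and to -0.78 for Spred1 (0.0025), which rose with bFGF on day 3 and fell on day 7. The CHIR99021 effect differed with and without bFGF for 2 genes, by 1.21 for Spry1 (adjusted p = 0.037) and 0.89 for Dusp6 (0.029), beside 0.692% of all genes. Each of these 2 calls held in only 4 of the 16 fits that left out 1 library.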

How the results depend on the processing

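The rises of Spry2, Spry4, Dusp4, Dusp5, Dusp6, Etv4 and Etv5 with bFGF over days 1 to 7 kept their direction and their call in all 24 alternatives, with log2 fold changes from 0.96 (Spry2) to 4.34 (Dusp4). Spred2 did so in 22 of 24, but reached 0.04 and 0.03 with limma (adjusted p = 0.81 and 0.86). Its effect turned to -0.29 and -0.32 on day 5 and to -0.56 and -0.61 on day 7 with limma on log2(FPKM + 1) and log2(FPKM + 0.1), and to -0.084 on day 7 with the length offset, and its difference of day 7 from day 1 turned to -1.03, -1.10 and -0.66 under these 3. Spred1 on day 5 turned to -0.28 without TMM. The CHIR99021 calls were less stable. In the additive model 0 of 10 genes passed, beside 38 of all genes in place of 2199. With limma at either pseudocount 0 genes passed the interaction test, and over all genes it called 1 and 0 in place of 78, against 242 with DESeq2 and 224 with no filter. Leaving out each library in turn gave 1 to 8 genes for CHIR99021 without bFGF (8 without B or BC of day 3), 2 to 5 with bFGF (5 without B or BC of day 1) and 0 to 2 for the interaction, and over all genes 238 to 1226, 722 to 2813 and 2 to 632, in place of 823, 1906 and 78. For bFGF on day 1 it gave 6 to 9 of the 10 genes and 145 to 1778 of all genes, in place of 1203. The share of bFGF calls over all genes that were rises was 28.2% without TMM, in place of 50.5%. Values of the 10 genes at least 2 times below day 0 with bFGF numbered 3 with quantile normalization, in place of 7. The causes were not tested. Every fit held a term for the day, so bFGF and CHIR99021 effects were compared within days. The changes from day 1 to day 7 in each arm compare libraries of different days. In those, nothing takes out differences between the cultures of the 2 days. There are no replicate numbers to block on. Counts of 41 to 206 limit Spry1.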
